A study of Homo sapiens with 32 samples.

Results

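The BCL2 family decides whether a cell keeps its mitochondria intact. The 10 family genes described here are the survival genes BCL2, BCL2L1 and MCL1, the BH3-only genes BCL2L11, BBC3, PMAIP1, BID and BMF, and the effector genes BAX and BAK1. They were chosen by gene symbol, and all 10 were found among the 18980 coding genes listed for each library. Survival proteins hold BAX and BAK1 in check. BH3-only proteins bind the survival proteins, and some bind the effectors directly. BAX and BAK1, once freed, open the outer mitochondrial membrane and release cytochrome c, after which caspases dismantle the cell. The balance of these groups, set partly by transcription, is known to govern how readily a tumour cell dies.

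RNA was measured in RH4, an established human alveolar rhabdomyosarcoma line, a tumour of the skeletal muscle lineage, after exposure to agents aimed at the acetyltransferases CBP and p300. The 4 agents were A485, dCBP, IHK-44 and JQAD. The labels describe them together as inhibitors or degraders without saying which is which, and A485 is known as an inhibitor of the catalytic domain. Each was given at 100 nM and at 1 µM, for 2 h and for 6 h, which made 16 treated libraries. Control cells received DMSO, in which compounds are dissolved, or belonged to a condition called NT with no further explanation, and each gave 1 library at 2 h and 1 at 6 h. No condition had a second library, all cells were of this 1 line, and the names of all 20 libraries end in the same run name, so that no split by run could be made. The 4 libraries of a compound (2 doses at 2 times), or its 2 doses at 1 time, therefore stood in for replicates, and a p-value measures the spread over doses and times, or between libraries, and not between cultures.

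Library sizes over coding genes ran from 13466631 to 16799327 expected counts. Of the 8 myogenic markers 7 were high: MYOD1 was at 508 to 677 CPM (counts scaled to the library's total) in the DMSO and NT libraries, MYOG at 264 to 300.1, while MYF5 was at or near 0. EPCAM, KRT5 and SNAP25 were at 0 in all 20 libraries, and the 4 blood markers together stayed at or below 0.361 CPM. The summed myogenic markers were at 2990 to 3255 CPM in the controls and at 3083 to 3519 with JQAD, and reached down to 1893 with A485, 1576 with dCBP and 1489 with IHK-44. Reads outside the coding genes made up 5.63% to 6.43% of the controls, 8.36% to 11.3% with dCBP and 8.2% to 9.58% with IHK-44. The part of these differences in the members' values was not tested. In bulk RNA, fewer cells expressing a gene and less of its RNA per cell cannot be told apart.

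The study's title concerns the density of CpG islands, so the 250 bases upstream of the annotated starts are shown for BMF, for both effectors and for PMAIP1, 4 of the members called in the comparisons that follow. They come from RefSeq (GRCh38.p14, the same build as the hg38 named in the submitters' processing notes), which held 15 starts for 9 of the 10 members. Each is written 5′ to 3′ on the gene's own strand, with every CpG in capitals. BMF has 2 starts, at chr15:40108880-40109129 and chr15:40106967-40107216, both on the minus strand. The others lie at chr6:33580277-33580526 (BAK1, minus strand), chr19:48954625-48954874 (BAX, plus strand) and chr18:59899746-59899995 (PMAIP1, plus strand).
BMF, first start: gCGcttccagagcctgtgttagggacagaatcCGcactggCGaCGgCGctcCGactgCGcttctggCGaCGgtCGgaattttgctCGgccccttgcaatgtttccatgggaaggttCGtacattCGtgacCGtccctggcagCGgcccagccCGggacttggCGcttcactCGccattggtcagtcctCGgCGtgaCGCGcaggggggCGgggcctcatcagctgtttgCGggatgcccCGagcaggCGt
BMF, second start: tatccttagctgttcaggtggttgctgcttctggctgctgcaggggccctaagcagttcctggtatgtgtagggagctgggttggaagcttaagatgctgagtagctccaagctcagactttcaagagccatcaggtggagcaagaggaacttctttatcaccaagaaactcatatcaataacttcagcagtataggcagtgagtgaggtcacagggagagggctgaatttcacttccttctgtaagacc
BAK1: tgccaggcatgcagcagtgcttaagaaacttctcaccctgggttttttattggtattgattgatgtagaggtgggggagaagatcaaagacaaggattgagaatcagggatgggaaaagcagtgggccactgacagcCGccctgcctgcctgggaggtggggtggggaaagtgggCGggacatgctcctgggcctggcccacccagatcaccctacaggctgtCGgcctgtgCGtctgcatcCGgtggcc
BAX: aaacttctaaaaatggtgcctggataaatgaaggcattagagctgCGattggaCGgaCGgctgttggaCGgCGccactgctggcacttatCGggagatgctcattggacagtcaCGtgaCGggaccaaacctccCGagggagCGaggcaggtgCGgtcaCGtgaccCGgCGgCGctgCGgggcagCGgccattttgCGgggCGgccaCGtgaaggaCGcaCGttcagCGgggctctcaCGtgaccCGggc
PMAIP1: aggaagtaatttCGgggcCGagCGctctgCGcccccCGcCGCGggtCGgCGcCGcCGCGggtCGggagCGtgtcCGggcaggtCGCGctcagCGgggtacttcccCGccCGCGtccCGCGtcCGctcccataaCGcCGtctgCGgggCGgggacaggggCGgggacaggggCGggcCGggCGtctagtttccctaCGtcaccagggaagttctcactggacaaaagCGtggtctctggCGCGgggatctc

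The windows differed widely in CpG content. The first BMF start had 26 CpGs, more than 80.4% of the 35116 promoters in the table, and the second had 0. BAK1 had 5, BAX 25 and PMAIP1 36, against a median of 11 and quartiles of 3 and 23 over all promoters. Of the members whose windows are not printed, BCL2L11 had 34, BCL2 24, BBC3 4, BCL2L1 17 and 12 at its 2 starts, and BID 4 to 30 at 5 starts. The 2 effectors thus had starts of low and of high CpG content, and BMF had 1 of each. MCL1 is not in the table. The BAX window held CACGTG, an E-box of the MYC type, 4 times, where 6.34% of all windows held it at all. Of the 2 BMF windows, the first held 1 CAGCTG, an E-box of the type that myogenic factors bind (14% of all windows), and 1 GGGCGG, the GC box (42.6% of all windows). GGGCGG, searched on both strands, came 2 times in the BAK1 window and 4 times in the PMAIP1 window. A match is a run of letters, and binding was not measured here.

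In GRCh38.p14, BMF spans chr15:40087890-40108879, BAK1 chr6:33572552-33580276, BAX chr19:48954875-48961798, BBC3 chr19:47220824-47232860 and MCL1 chr1:150574558-150579610. PMAIP1 spans chr18:59899996-59904305, BCL2 chr18:63123346-63320090, BCL2L1 chr20:31664452-31723963, BID chr22:17734138-17774665 and BCL2L11 chr2:111120914-111168445. The counts used here are summed over each whole gene.

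Levels of different genes were compared per length, in TPM, the length-corrected unit scaled over all transcripts. In the 2 h DMSO library MCL1 stood at 79.7 TPM and BAX at 78.1, followed by BMF at 30.7, BAK1 at 20.8, BID at 12.6, BCL2L1 at 11.4, PMAIP1 at 9.3, BCL2 at 8.57, BCL2L11 at 6.52 and BBC3 at 2.11. Several neighbours in this order overlapped over the 4 DMSO and NT libraries. MCL1 (66.3 to 79.7 TPM) overlapped BAX (60.2 to 78.1), BMF (16.5 to 34.3) overlapped BAK1 (19.1 to 21), and PMAIP1 (6.14 to 9.3) overlapped BCL2 (7.54 to 8.91). BBC3, at 1.07 to 2.12 TPM, lay below the rest in all 4. MCL1, the labile survival protein, thus supplied most of the survival transcripts, and BAX most of the effector transcripts. The counts are per gene, so the splice forms of MCL1, BCL2L1 and BCL2L11 with opposite or different activity are not separated.

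CPM values compare a gene between libraries. Within a compound, differences were fitted in edgeR's quasi-likelihood model over all 13260 genes that passed the filter on low counts, all 10 members included, and a gene was called when its Benjamini-Hochberg adjusted p was below 0.05. Against DMSO, with the 4 libraries of a compound together, 0 of 10 members were called for A485, where 0.271% of all genes were called (0.158% lower). At an unadjusted p below 0.05 there were 2 for A485, and DESeq2 and limma on CPM also called 0. Counts of members at an unadjusted p, here and below, stand without the share of all genes at that cut. They therefore do not set the members apart from other genes. For dCBP 1 member was called (23.7% of all genes), and it was BMF. For IHK-44 2 were called (16.9% of all genes, 7.74% higher and 9.21% lower), BMF and PMAIP1, both lower. For JQAD the count was 0 (0% of all genes), also at an unadjusted p below 0.05 and with DESeq2 and limma. NT against DMSO, the background contrast, likewise had 0 in edgeR (0% of all genes), DESeq2 and limma, and 0 at an unadjusted p below 0.05. The members' median log2 change was -0.15 (A485), -0.09 (dCBP), -0.21 (IHK-44) and -0.02 for JQAD, beside medians over all genes of 0.01, 0.05, 0.04 and 0.00.

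**Figure D1:**
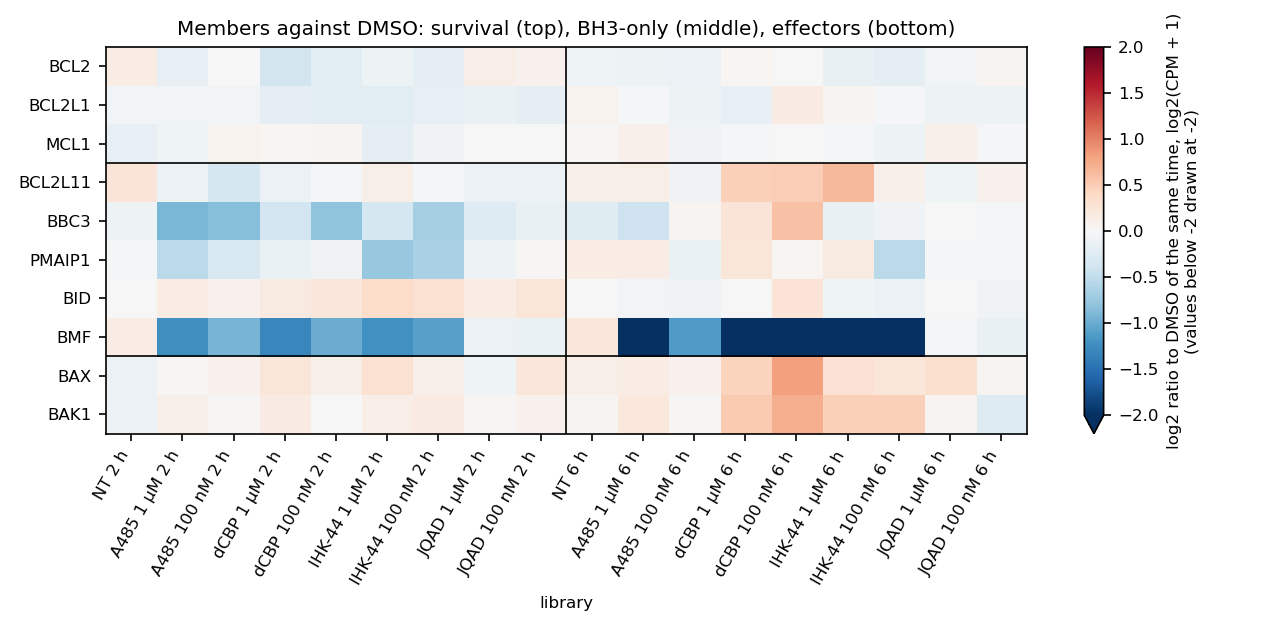
Log2 ratio of each member to DMSO at its own time, on the log2(CPM + 1) scale, for the 18 other libraries (2 h left of the vertical line, 6 h right of it), with the survival, BH3-only and effector genes separated by horizontal lines. The BMF row is the only one below -1, in 10 libraries of A485, dCBP and IHK-44, and it is pale for JQAD and NT.

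BMF, whose product binds survival proteins and is known to be released under loss of attachment or cytoskeletal stress, moved furthest of the members. It stood at 130.5 CPM with DMSO and 145 with NT at 2 h, and at 79.5 and 93.5 at 6 h. With A485 the 2 h libraries were at 55.5 CPM (1 µM) and 68.3 (100 nM), and the 6 h libraries at 10.1 and 35.5. With dCBP they were at 52 and 65.1 CPM at 2 h, then at 9.81 and 12.8 at 6 h. These 8 libraries all lay below every control library, and the 1 µM value was the lower of each pair. With IHK-44 BMF was at 56 CPM (1 µM) and 61.2 (100 nM) at 2 h, and at 6.38 and 6.73 at 6 h, the lowest of the series. With JQAD it was at 121 and 118 CPM at 2 h and at 77.1 and 72 at 6 h. Every JQAD value was below both controls of its own time, at log2 ratios to DMSO of -0.04 to -0.14 on the log2(CPM + 1) scale. BMF was below both controls of its time in all 4 libraries of each compound, as were 11.2% of the 12174 genes with a mean of at least 1 CPM for A485, 14.4% for dCBP, 15% for IHK-44 and 4.62% for JQAD. The compounds share these control libraries.

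**Figure D2:**
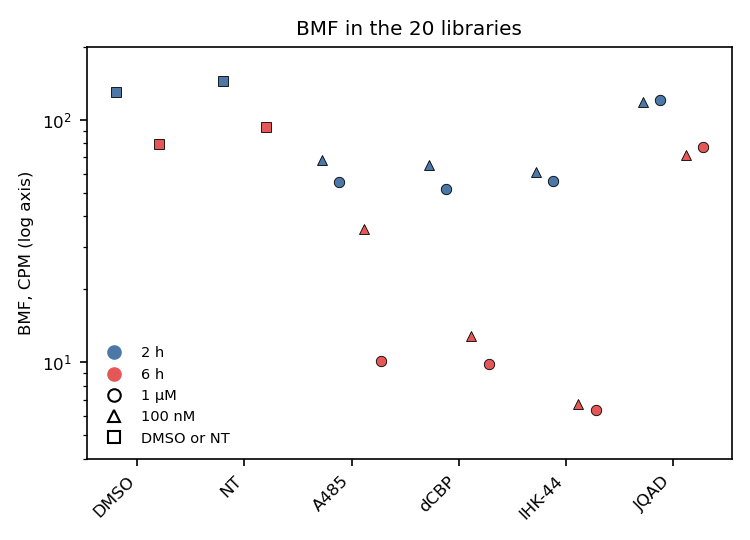
BMF in CPM (log axis) for each of the 20 libraries, by treatment; blue is 2 h, red is 6 h, circles are 1 µM, triangles 100 nM and squares DMSO or NT. The red points of dCBP and IHK-44 lie between 6.38 and 12.8 CPM, the A485 points at 6 h are split by dose (10.1 and 35.5), and JQAD stays next to the controls.

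On the log2(CPM + 1) scale BMF was at least 2-fold below DMSO of its own time in 10 of the 12 libraries of A485, dCBP and IHK-44. Between 0.312% and 6.97% of all genes were as low in those 10 libraries. The exceptions were the 100 nM libraries of A485 and of dCBP at 2 h, at log2 ratios of -0.92 and -0.99. On plain CPM, or with a pseudocount of 0.1, the dCBP library also passed (2.005-fold), which made 11. No JQAD or NT library showed such a fall of BMF. On log2(CPM + 1) no other member was 2-fold lower or higher in any library. On plain CPM BBC3, at 19 to 55 counts a library, also passed 2-fold at 2 h. It was below DMSO by 2.55-fold with 1 µM A485, 2.39-fold with 100 nM A485 and 2.24-fold with 100 nM dCBP. In the fit against DMSO, the log2 change of BMF was -2.06 ± 0.517 (SE) for dCBP, with an edgeR adjusted p of 0.0132, lower in 4 of 4 libraries. For IHK-44 it was -2.28 ± 0.520, with an edgeR adjusted p of 0.011, again in 4 of 4. For A485 it was -1.56 ± 0.511 and did not pass (edgeR adjusted p = 0.131). For JQAD it was -0.11, with a 95% interval from -1.23 to 1.02. Both calls rested on the 6 h DMSO library: without it the log2 change was -1.51 for dCBP (edgeR adjusted p = 0.235) and -1.75 for IHK-44 (edgeR adjusted p = 0.217). With DMSO and NT joined as the control, BMF was also called for A485, at -1.66 (edgeR adjusted p = 0.0294).

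Time was then fitted as a level of its own, each compound at 2 h or 6 h against the DMSO and NT libraries of that time (2 against 2). At 2 h 0 members were called for A485 (0.0452% of all genes called), although 4 had an unadjusted p below 0.05, and DESeq2 and limma called 0. For dCBP 2 were called (5.63% of all genes, 2.96% higher and 2.67% lower) and for IHK-44 2 (4.88% of all genes, 2.43% higher and 2.45% lower), all 4 lower. At 6 h 1 was called for A485 (16.6% of all genes, 7.87% higher and 8.7% lower) and it was lower. For dCBP 3 were called (45.5% of all genes), 2 higher (23.2%) and 1 lower (22.4%). For IHK-44 4 were called (42.1% of all genes), all lower (21.4%). JQAD had 0 at either time in edgeR, DESeq2 and limma, also at an unadjusted p below 0.05 (0% of all genes). Over both directions together, the members' share called for dCBP and IHK-44 at 6 h was close to the share of all genes or below it. By direction IHK-44 at 6 h had 4 of 10 members lower (21.4% of all genes) and 0 higher (20.7% of all genes). This difference was not tested.

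**Figure D3:**
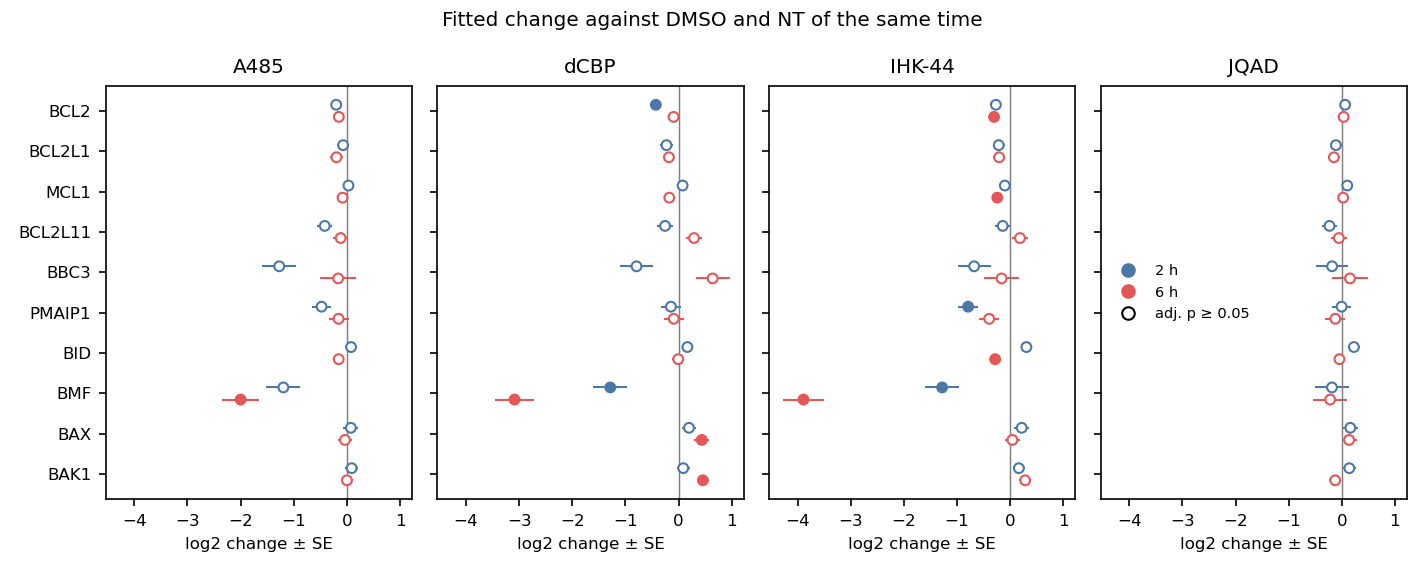
Fitted log2 change (x axis) with its standard error (bars) of each member against DMSO and NT of the same time, one panel per compound, blue for 2 h and red for 6 h; filled points have an edgeR adjusted p below 0.05. BMF stands at -1.999 (A485), -3.09 (dCBP) and -3.89 (IHK-44) at 6 h, and BAX and BAK1 lie to the right of 0 for dCBP at 6 h, although their calls are lost when TPM is tested in place of counts.

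BMF fell at both times with dCBP and IHK-44 and at 6 h with A485. The A485 value at 2 h, -1.20 ± 0.321 on the log2 scale, was about as large as those of the other 2 compounds but did not pass (edgeR adjusted p = 0.136). At 2 h its log2 change was -1.28 ± 0.324 (SE) for dCBP and -1.28 ± 0.323 for IHK-44, with edgeR adjusted p-values of 0.031 and 0.029. Both 2 h calls were lost when any 1 of their 4 libraries was left out (edgeR adjusted p from 0.0861 to 0.25 for dCBP and from 0.0998 to 0.271 for IHK-44). At 6 h it was -1.999 ± 0.342 for A485, 4.00-fold lower, with an edgeR adjusted p of 0.00327. For dCBP it was -3.09 ± 0.369, 8.5-fold lower, with an edgeR adjusted p of 1.27e-05. For IHK-44 it was -3.89 ± 0.387, 14.8-fold lower, with an edgeR adjusted p of 4.14e-06. These 3 calls were kept without any single library of their contrast. The A485 value nevertheless depended on dose, at -1.32 without the 1 µM library and -3.23 without the 100 nM library.

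The difference between the 6 h effect and the 2 h effect was tested as an interaction. It was -1.80 ± 0.483 (SE) for dCBP on the log2 scale, with an edgeR adjusted p of 0.029, and 9.06% of all genes passed. Leaving out any library but the 1 µM dCBP library at 2 h ended this call, with adjusted p up to 0.122. For IHK-44 the BMF interaction was -2.61 ± 0.496, with an edgeR adjusted p of 0.00423 (9.89% of all genes), and it was kept without each library in turn. For A485 it was -0.80 ± 0.462 and not called (edgeR adjusted p = 0.586), and it was -2.02 without the 100 nM library at 6 h. For JQAD it was -0.03, with a 95% interval from -1.03 to 0.96.

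Time alone was looked at within each treatment. In DMSO and NT the log2 change of BMF from 2 h to 6 h was -0.67. Its 95% interval ran from -1.38 to 0.04, with an edgeR adjusted p of 0.565. JQAD gave -0.70, with an interval from -1.42 to 0.01. Neither was called, 0 members were called there (0.0754% of all genes in DMSO and NT, 0.083% with JQAD), and at an unadjusted p below 0.05 there were 3 and 2. DESeq2 and limma on CPM called 0 as well. Within dCBP the log2 change of BMF from 2 h to 6 h was -2.47 ± 0.368 (edgeR adjusted p = 0.00018). Within IHK-44 it was -3.28 ± 0.386 (edgeR adjusted p = 2.59e-05). Within A485 it was -1.47 ± 0.341 (edgeR adjusted p = 0.0211). That call was lost without either 2 h library or the 1 µM library at 6 h, and the value was -0.80 without the latter, and -2.69 when the 100 nM library of 6 h was dropped. The call counts were 1 member for A485 (7.63% of all genes), 3 for dCBP (32.4% of all genes) and 3 for IHK-44 (32% of all genes).

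The effectors were the only members that edgeR called higher against the controls of the same time. Both calls were for dCBP at 6 h on the count scale, and neither held on the TPM scale. With dCBP at 6 h 6 of the 10 members lay above both controls in both libraries. These were BCL2, BCL2L11, BBC3, BID, BAX and BAK1. BAK1, resident in the mitochondrial membrane, was at 39 CPM with DMSO and 35.9 with NT at 2 h, and at 42.6 and 44.2 at 6 h. With dCBP it was at 43.7 CPM (1 µM) and 38.8 (100 nM) at 2 h, and at 61.7 and 71.2 at 6 h. With IHK-44 it was at 42.8 and 44.1 CPM at 2 h, and at 59.4 and 59.4 at 6 h. The 4 libraries of dCBP and IHK-44 at 6 h were thus the highest of the series and did not overlap the controls. Both libraries lay above the controls of the time for 50.4% of all genes with dCBP and for 59.5% with IHK-44 at 6 h. With A485 BAK1 was at 42.4 CPM (1 µM) and 39.9 (100 nM) at 2 h and at 49.3 and 43.2 at 6 h. With JQAD it was at 39.8 and 41.7 CPM at 2 h and at 44.3 and 35.4 at 6 h, inside or near the range of the controls.

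For dCBP at 6 h the log2 change of BAK1 was 0.46 ± 0.117 (SE), with an edgeR adjusted p of 0.00459, higher in 2 of 2 libraries. For IHK-44 at 6 h it was 0.28 ± 0.117 and just missed the threshold (edgeR adjusted p = 0.0616), and limma on log2(CPM + 1) called it at 0.44. Between 2 h and 6 h BAK1 rose by 0.58 ± 0.118 within dCBP (edgeR adjusted p = 0.00153) and by 0.33 ± 0.117 within IHK-44 (edgeR adjusted p = 0.0393). The IHK-44 call was lost without any 1 of its 4 libraries. The BAK1 interaction was not called for either compound (0.37 ± 0.167 with an edgeR adjusted p of 0.178 for dCBP, and 0.12 ± 0.167 with 0.716 for IHK-44). A485 and JQAD gave 0.00 and -0.12 at 6 h, neither called.

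BAX, which moves from the cytosol to mitochondria when activated, was at 55 CPM with DMSO and 50.4 with NT at 2 h and at 46.6 and 50.8 at 6 h. With dCBP it was at 65.3 CPM (1 µM) and 59.9 (100 nM) at 2 h and at 63.6 and 83.1 at 6 h. All 4 dCBP values were above all 4 control values, and the 100 nM library at 6 h was the highest of the series. All 4 libraries lay above the controls of their time for 28.9% of all genes with dCBP and for 33.8% with IHK-44. With IHK-44 it was at 68.1 and 58.9 CPM at 2 h and at 57.3 and 55.5 at 6 h, also above all 4 controls. A485 gave 56.1 and 58.4 CPM at 2 h and 51.7 and 49.3 at 6 h, and JQAD 51.9 and 64.3 at 2 h and 58.7 and 48.5 at 6 h. JQAD at 100 nM and 2 h thus stood above 1 of the dCBP libraries of that time. For dCBP at 6 h the log2 change was 0.44 ± 0.14 (SE), with an edgeR adjusted p of 0.0177. The call was lost without the 6 h DMSO library (0.38, edgeR adjusted p = 0.111), and without the 100 nM dCBP library the value was 0.21 (edgeR adjusted p = 0.242). For the other 3 compounds at 6 h the log2 change lay between -0.04 and 0.14 and was not called.

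Scaling mattered for these modest rises. TPM was scaled by the authors over all quantified genes, and the coding rows held 27.9% to 53.9% of it. On log2(TPM + 1), limma moved the median of all genes to -0.19 for dCBP and -0.19 for IHK-44 at 6 h, and to 0.35 for A485 at 6 h. BAX and BAK1 were then at 0.14 and 0.13 for dCBP at 6 h and not called. Relative to the median of all genes they stood at 0.33 and 0.32 on TPM and at 0.37 and 0.39 on the counts. On the same TPM scale BMF stayed called at 6 h, at -1.62 with A485, -2.83 with dCBP and -3.27 with IHK-44.

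**Figure D4:**
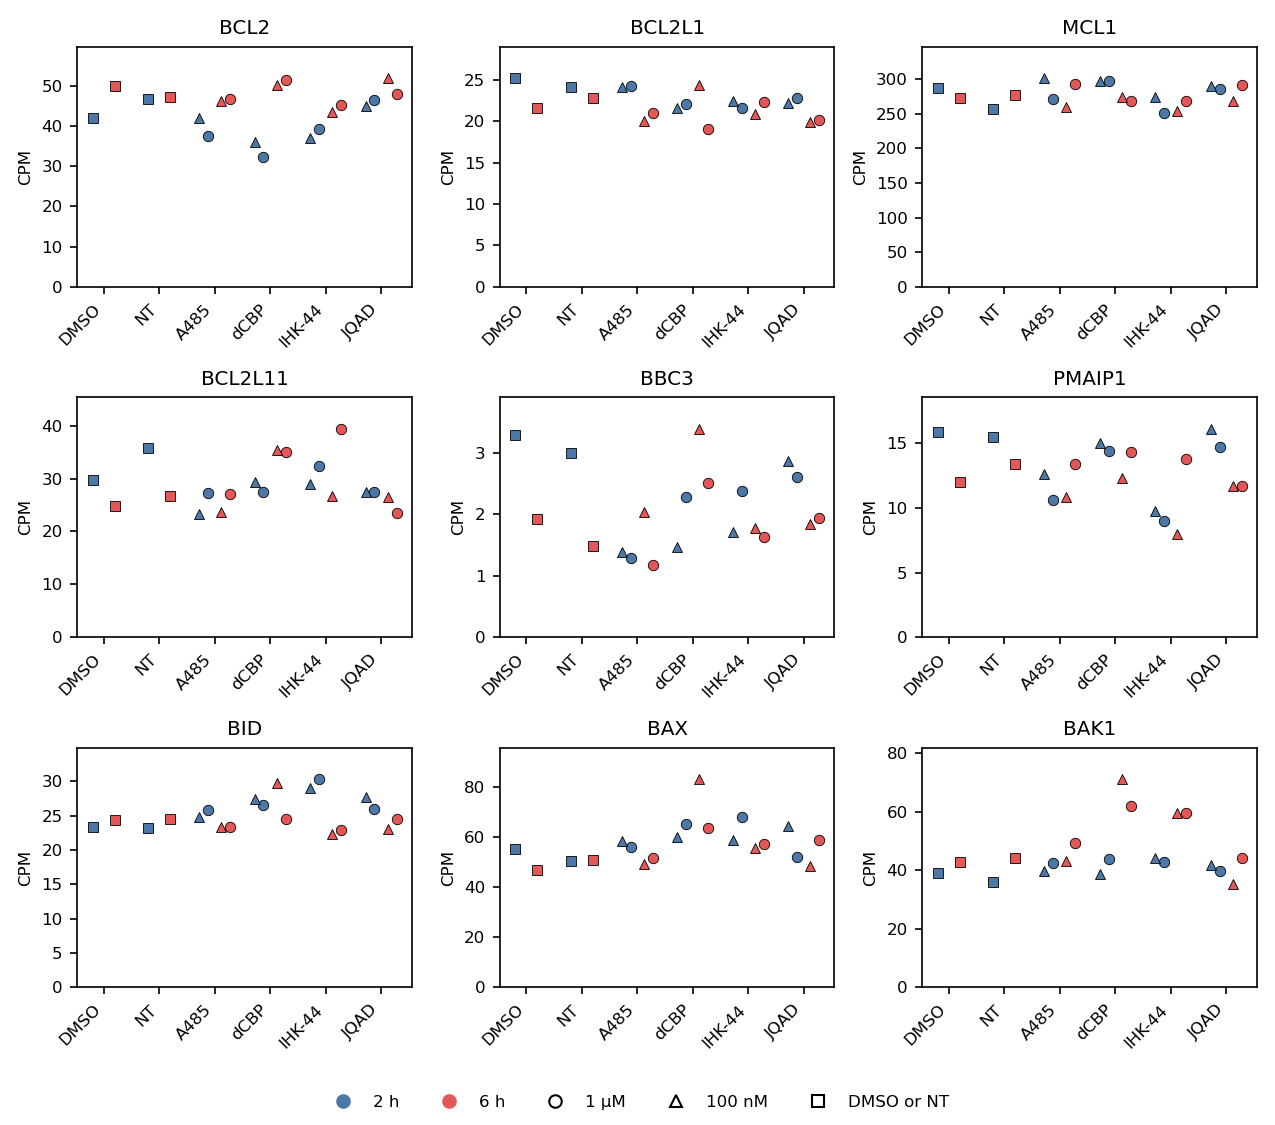
The 9 members other than BMF in CPM (linear axes from 0), by treatment, for each of the 20 libraries; blue is 2 h, red is 6 h, circles are 1 µM, triangles 100 nM and squares DMSO or NT. BAK1 is highest at 6 h with dCBP and IHK-44 (59.4 to 71.2 CPM), while MCL1 stays between 251 and 301 CPM throughout; on the TPM scale the BAK1 rise for dCBP is not called.

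On CPM the survival genes moved little. On TPM, where the median of all genes moved too, their sum at 6 h was 82.8 to 85.5 in the controls. It was 53.6 to 68.3 with dCBP, 56.7 to 58.4 with IHK-44, 101.4 to 111.5 with A485 and 91.9 to 99.3 with JQAD. MCL1 lay between 251 and 301 CPM over the 20 libraries, with 257 to 287 CPM in the controls. Its TPM lay between 41.9 and 95.4, with 66.3 to 79.7 in the controls. BCL2L1 lay between 19.1 and 25.2 CPM, with 21.6 to 25.2 in the controls, and it was called in none of the edgeR comparisons above. With DMSO and NT joined as the control it passed at -0.21 for dCBP and -0.22 for IHK-44 (edgeR adjusted p = 0.0384 and 0.034). BCL2, the founding member, was at 42 CPM with DMSO and 46.8 with NT at 2 h and at 50 and 47.1 at 6 h. With dCBP it was at 32.4 CPM (1 µM) and 35.9 (100 nM) at 2 h, the 2 lowest values of the series, and at 51.3 and 50.3 at 6 h. With IHK-44 it was at 39.1 and 37.1 CPM at 2 h and at 45.1 and 43.5 at 6 h, below both controls of the time in each case, as were 15% of all genes. A485 gave 37.4 and 42.03 CPM at 2 h and 46.7 and 46.3 at 6 h, and JQAD 46.4 and 44.9 at 2 h and 48 and 51.9 at 6 h.

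BCL2 fell with dCBP at 2 h, by 0.43 ± 0.0982 (SE) on the log2 scale, with an edgeR adjusted p of 0.0203, in 2 of 2 libraries. Without the DMSO, the NT or the 1 µM dCBP library of 2 h the call was lost. At 6 h it was -0.09 ± 0.0964 and not called. This sign came with TMM scaling (factors of 1.095 and 1.053 for the dCBP libraries, 0.962 and 0.963 for the controls), and on log2(CPM + 1) the difference was 0.06. Within dCBP the 6 h libraries were higher than the 2 h libraries by 0.47 ± 0.0983, with an edgeR adjusted p of 0.00205. The interaction itself was not called (0.33 ± 0.138, edgeR adjusted p = 0.139). With IHK-44 at 6 h BCL2 fell by 0.30 ± 0.0963 (edgeR adjusted p = 0.0187) and MCL1 fell by 0.24 ± 0.0896 (edgeR adjusted p = 0.0389). Both calls were lost without any 1 of their 4 libraries and under limma on log2(CPM + 1), where the values were -0.13 and -0.07.

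PMAIP1, which encodes NOXA, a partner of MCL1, was at 15.9 CPM with DMSO and 15.5 with NT at 2 h and at 12 and 13.4 at 6 h. With IHK-44 it was at 8.98 CPM (1 µM) and 9.75 (100 nM) at 2 h, and at 13.8 and 7.98 at 6 h. The 2 values of 2 h were the lowest at that time, and the 2 doses parted at 6 h. With A485 it was at 10.6 and 12.6 CPM at 2 h and at 13.4 and 10.85 at 6 h. With dCBP it stayed between 12.3 and 15 CPM and with JQAD between 11.7 and 16.1 CPM. For IHK-44 against DMSO the log2 change of PMAIP1 was -0.57 ± 0.175 (SE), with an edgeR adjusted p of 0.037, and at 2 h against DMSO and NT it was -0.79 ± 0.189, with an edgeR adjusted p of 0.022. The 2 h call was lost without any 1 of its 4 libraries, and that against DMSO without any 1 of 5 of its 6 libraries, the exception being the 1 µM IHK-44 library at 6 h, and under limma on log2(CPM + 1), at -0.44.

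BID, the link from death receptors to mitochondria, was at 23.3 CPM with DMSO and 23.2 with NT at 2 h and at 24.4 and 24.5 at 6 h. With IHK-44 it was at 30.4 CPM (1 µM) and 29.1 (100 nM) at 2 h and at 22.9 and 22.3 at 6 h. It was thus above the controls at 2 h, as were 40.1% of all genes, and below them at 6 h, as were 26.5%. The 2 h difference was 0.31 ± 0.108 (SE) and not called (edgeR adjusted p = 0.1275), and the 6 h difference was -0.28 ± 0.109, with an edgeR adjusted p of 0.0463. On log2(CPM + 1) the 6 h difference was -0.11 and not called by limma. The interaction was -0.59 ± 0.153 with an edgeR adjusted p of 0.0225, and the change from 2 h to 6 h within IHK-44 was -0.51 ± 0.108 (edgeR adjusted p = 0.00196). The 6 h call and the interaction were lost without any 1 of their libraries, while the change within IHK-44 was kept. Other BID values were 25.8 and 24.8 CPM with A485, 26.5 and 27.5 with dCBP and 25.9 and 27.7 with JQAD at 2 h, and 23.1 to 29.7 over the 3 compounds at 6 h.

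BCL2L11, which encodes BIM, and BBC3, which encodes PUMA, were called in none of the edgeR comparisons with all libraries. BCL2L11 lay between 24.9 and 35.7 CPM in the controls and between 23.2 and 39.5 CPM with compound, highest with 1 µM IHK-44 at 6 h. With dCBP at 6 h it was at 35 and 35.5 CPM, a log2 change of 0.29 ± 0.145 (edgeR adjusted p = 0.11), and limma on log2(CPM + 1) called it. BBC3 was the lowest member, at 1.18 to 3.4 CPM, which is 19 to 55 counts a library, so that its ratios carry a large counting error. At 2 h it was at 3.3 CPM with DMSO and 3 with NT, and at 1.29 and 1.38 with A485, a log2 change of -1.27 ± 0.323 that did not pass (edgeR adjusted p = 0.114). With dCBP BBC3 moved from 2.29 and 1.47 CPM at 2 h to 2.51 and 3.4 at 6 h. That interaction, 1.43 ± 0.452, had an edgeR adjusted p of 0.0575 and was called by limma on log2(CPM + 1).

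Between the 2 doses of a compound 0 members passed. In the fit of the 16 treated libraries (12895 genes), which compared doses inside every pairing of compound and time, 0 members were called between 1 µM and 100 nM for A485 (0.907% of all genes), dCBP (0%), IHK-44 (0.109%) and JQAD (0%). At an unadjusted p below 0.05 there was 1 for A485, 1 for IHK-44 and 0 for dCBP and JQAD, and DESeq2 and limma called 0 for each. For A485 BMF was lower at 1 µM by a log2 change of -1.05 ± 0.265 (SE), with an edgeR adjusted p of 0.11. This was called with no filter on low counts (edgeR adjusted p = 0.0273). The value came mainly from 6 h: leaving out either 2 h library gave -1.91, which was called, and leaving out either 6 h library gave -0.34, which was not. The BMF dose difference was -0.37 for dCBP (95% interval -1.12 to 0.38), -0.14 for IHK-44 (-0.91 to 0.63) and 0.08 for JQAD (-0.60 to 0.76).

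The compounds were compared in 6 pairs, over matched doses and times. JQAD against IHK-44 gave 4 called members (32.5% of all genes), all higher with JQAD. For BMF the log2 difference was 2.17 ± 0.461 (SE), with an edgeR adjusted p of 0.00315, or 0.0189 after multiplying by the 6 pairs. For BCL2 it was 0.33 ± 0.0825, with an edgeR adjusted p of 0.00743, or 0.0446 over the pairs. PMAIP1 (0.53 ± 0.146) and MCL1 (0.24 ± 0.066) passed within the pair (edgeR adjusted p = 0.0128 and 0.0138) but not over the pairs (0.0767 and 0.0829). The BCL2 and MCL1 calls were lost under limma on log2(CPM + 1), and that of MCL1 without the 1 µM JQAD library at 6 h. JQAD against dCBP gave 2 called members (35.3% of all genes), BMF at 1.96 ± 0.455, with an edgeR adjusted p of 0.00516, or 0.031 over the pairs, and BCL2 at 0.30 ± 0.0827, with an edgeR adjusted p of 0.0116, or 0.0698 over the pairs. This BCL2 call too was lost under limma on log2(CPM + 1). The BMF differences of these 2 pairs were kept without each library in turn.

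In the remaining 4 pairs 0 members were called by edgeR. For JQAD against A485 (4.91% of all genes called, 1.7% higher and 3.21% lower) BMF was higher with JQAD by 1.46 ± 0.442 (SE) on the log2 scale, with an edgeR adjusted p of 0.0634. DESeq2 (adjusted p = 0.0408) and limma on log2(CPM + 1) called it. For IHK-44 against dCBP (0% of all genes) the BMF difference was -0.22, with a 95% interval from -1.18 to 0.75. Against A485, BMF was at -0.50 for dCBP (interval -1.46 to 0.47, 0.724% of all genes called) and at -0.72 for IHK-44 (-1.69 to 0.25, 0.882% of all genes called, 0.505% higher). These intervals include differences of more than 2-fold. Unadjusted p-values below 0.05 numbered 3 for JQAD against A485, 1 for IHK-44 against dCBP, 4 for dCBP against A485 and 2 for IHK-44 against A485. The share of all genes at that cut is not given, so these counts do not set the members apart. DESeq2 called 0 members in these 4 pairs except for JQAD against A485. On counts, BAX and BAK1 were higher by 0.30 and 0.24 with dCBP than with A485 and not called, whereas on the TPM scale they were lower by log2 differences of -0.31 and -0.44 and called.

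The balance of the groups was described as shares of the 10 members' summed TPM within a library, which a common scaling factor does not change. The survival genes held 38.4%, the BH3-only genes 23.6% and the effectors 38.1% in the 2 h DMSO library. In the 6 h DMSO library they held 40.7%, 20% and 39.4%. The NT libraries were at 36.5%, 26.3% and 37.2% at 2 h and at 38.7%, 20.4% and 41% at 6 h. The BH3-only share was lower in every library of A485, dCBP and IHK-44, at 16.3% to 18.1% at 2 h and 11.2% to 15.6% at 6 h, than in the controls of the time. With JQAD it was 21.7% and 23.4% at 2 h and 17.8% and 19.3% at 6 h, also below both controls but close to them. The survival share at 2 h was 39.6% to 41.1% with A485, 37.4% to 38.6% with dCBP, 34.2% to 37.1% with IHK-44 and 35.8% to 39.1% with JQAD. At 6 h the survival share was 41.2% to 42.7% with A485, 32.7% to 35.7% with dCBP, 38.25% to 38.6% with IHK-44 and 39.9% to 41.1% with JQAD. BMF held 11.8% of the family (2 h) and 8.12% (6 h) with DMSO, and from 0.616% (1 µM IHK-44) to 3.84% (100 nM A485) in the 3 compounds at 6 h. No test was made on the shares, which rest on 1 library a condition.

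**Figure D5:**
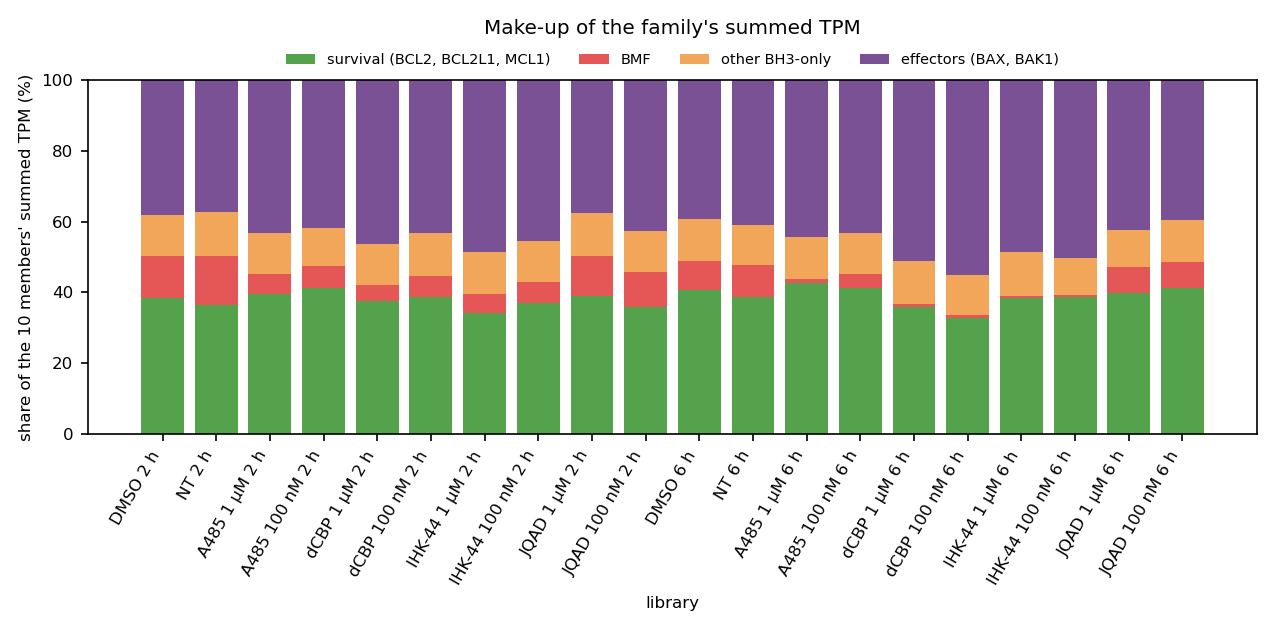
Shares (%) of the 10 members' summed TPM held by the survival genes, BMF, the other BH3-only genes and the effectors, one stacked bar per library, 2 h on the left and 6 h on the right. BMF shrinks from 11.8% (DMSO 2 h) and 8.12% (DMSO 6 h) to below 1.1% at 6 h with 1 µM A485, dCBP and IHK-44, and the effector share reaches 55.2% with 100 nM dCBP.

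The groups were also set against each other. The ratio of survival to BH3-only TPM was 1.63 in DMSO and 1.39 in NT at 2 h, and 2.04 and 1.9 at 6 h. At 6 h it was 3.31 and 2.65 with A485 (1 µM, then 100 nM), 2.72 and 2.69 with dCBP, 2.9 and 3.44 with IHK-44 and 2.24 and 2.13 with JQAD. With BMF left out the ratio was 3.44 in DMSO and 3.38 in NT at 6 h and 2.92 to 3.67 in the 6 libraries of A485, dCBP and IHK-44. The ratio of survival to effector TPM was 1.01 in DMSO and 0.98 in NT at 2 h, and 1.03 and 0.943 at 6 h. At 2 h it was 0.8085 and 0.893 with dCBP and 0.702 and 0.816 with IHK-44, already below all 4 controls. With A485 it was 0.915 and 0.985 at 2 h. At 6 h it was 0.698 and 0.592 with dCBP and 0.788 and 0.769 with IHK-44, below all 4 controls, and 0.962 and 0.954 with A485. JQAD gave 0.841 to 1.04. MCL1 held 78.1% to 83.4% of the survival TPM in all 20 libraries.

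The pathway around the family was read from lists of its other genes. Of the other survival genes BCL2L2 alone was tested, and it was called for 0 compounds against DMSO, while BCL2A1 and BCL2L10 were at or near 0. Of the other death genes BAD, BOK, BNIP3 and BNIP3L were tested, and BIK and HRK were near 0. BNIP3L, a mitophagy receptor, was at 173.5 to 185 CPM in the controls and at 97.8 to 125 CPM with dCBP at 6 h. It fell by 0.64 ± 0.136 (SE) with dCBP and by 0.52 ± 0.136 with IHK-44 against DMSO, with edgeR adjusted p-values of 0.00639 and 0.0206. The list's median log2 change against DMSO was -0.19 for dCBP and -0.18 for IHK-44, beside 0.05 and 0.04 over all genes. At 6 h, 2 of the 4 were called higher and 2 lower for dCBP, and 1 higher and 2 lower for IHK-44, where 45.5% and 42.1% of all genes were called. A485 had 2 lower at 6 h (8.7% of all genes), and JQAD had 0 (0% of all genes).

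Downstream, 10 of 11 apoptosome and caspase genes were tested. For dCBP 1 was called higher against DMSO (11.8% of all genes), and likewise for IHK-44 (7.74%). It was CASP6, an executioner caspase at 3.6 to 5.15 CPM in the controls. CASP6 rose by 0.83 ± 0.227 (SE) with dCBP and by 0.90 ± 0.227 with IHK-44, with edgeR adjusted p-values of 0.0191 and 0.017. The list's median was -0.05 for dCBP and -0.08 for IHK-44. Of the 6 inhibitors of apoptosis 0 were called against DMSO for any compound, with medians of -0.09 for dCBP and -0.10 for IHK-44. At 6 h 2 fell with dCBP and 1 with IHK-44, near the shares of all genes that fell (22.4% and 21.4%). Of the death receptor genes, 5 of 8 were tested. With dCBP 2 rose and 2 fell, with IHK-44 2 fell, where 23.7% and 16.9% of all genes were called. TNFRSF1A, the TNF receptor, fell by 0.44 ± 0.136 and 0.46 ± 0.135, and RIPK1 and TRADD, adaptors of that receptor, rose by 0.46 ± 0.14 and 0.82 ± 0.244 with dCBP. The list's median was 0.20 for dCBP and 0.08 for IHK-44.

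Of 16 listed regulators of the family, 1 rose and 6 fell with dCBP, 6 fell with IHK-44, 1 fell with A485 and 0 were called with JQAD. Over all genes 11.8% rose and 11.8% fell with dCBP, 9.21% fell with IHK-44 and 0.158% fell with A485. The list's median was -0.02 for dCBP and -0.01 for IHK-44. MYC was at 63.4 to 75.6 CPM in the controls and at 1.47 to 2.05 CPM with dCBP and 0.833 to 1.26 CPM with IHK-44 at 6 h. MYCN had a log2 change of -3.55 ± 0.602 (SE) with dCBP and of -4.37 ± 0.624 with IHK-44. FOXO1, whose family of factors is known to drive BH3-only genes, was at 169 to 186 CPM in the controls and at 21.2 to 28.5 CPM with dCBP at 6 h. In this line reads of FOXO1 can also come from the PAX3-FOXO1 fusion, which gene-level counts do not separate.

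Over the 20 libraries, the genes whose log2(CPM + 1) followed BMF most closely, among the 12174 genes with a mean of at least 1 CPM, were TRIL (Pearson r 0.992), PDZRN3 (0.99) and TRIM55 (0.99). The 20 points share 4 control libraries and the contrast between active compounds and the rest. TRIL was at 15.8 to 24.9 CPM in the controls and at 3.69 to 4.33 CPM with IHK-44 at 6 h, and PDZRN3 at 139 to 196 and 14.3 to 14.4. TRIM55, a muscle ring finger gene, was at 43.7 to 47.5 CPM and at 12.2 to 12.6 CPM. Among the members BAK1 ran opposite to BMF (r -0.867), and the other 8 members lay between -0.362 and 0.353.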

How the data were processed

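RNA-seq of RH4 cells (20 libraries) was used. ChIP-seq (11 samples) and ChRO-seq (1 sample) were not analysed here. Per the submitters' processing notes STAR 2.5.3a, RSEM 1.3.3 and the builds hg38 and mm10 were used, with no roles given. The expected counts (estimated reads per gene), TPM and FPKM were deposited by the authors for coding rows, with TPM and FPKM scaled over all genes they quantified. The deposited CPM values are expected counts scaled by the authors to the same sum over the coding rows, as the values show. Gene lengths, also deposited, were used only to describe the genes.

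Expected counts were rounded and fitted with edgeR 4.0.16 in R 4.3.3 (TMM, filterByExpr, quasi-likelihood F-test, Benjamini-Hochberg adjustment over all genes tested). The model against DMSO and between compounds had a level per treatment and a time term (13 residual degrees of freedom). A second had a level per compound and time with DMSO and NT joined (10), and another, of the treated libraries, had compound and time blocks with a dose term per compound (4). Standard errors were recovered from the log2 change and the F statistic. Ratios of single libraries used log2(CPM + 1), which understates the change of low genes, and had no test. The fits were tested on simulated counts. DESeq2 1.42.0 and limma 3.58.1 served as alternatives, with other scaling, no filter, other controls, a pseudocount of 0.1, and each library left out in turn. The comparison of 6 h with 2 h within a treatment and the shares without BMF were added after the data were seen. The members and gene lists were chosen with earlier results of these data known. All 10 members were described. DMSO and NT joined, or NT in place of DMSO, were the other controls. From each pathway list the text names the 3 called genes with the largest change against DMSO that moved the same way in all 4 libraries of a compound, and the 3 genes with the highest Pearson r with BMF. Other genes named from the lists, and the untested ones, were named after their values were seen. Results for some genes of these lists, called ones included, are not reported here.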

Additional observations from a re-analysis of the deposited data

Results flagged for a closer look

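The effect of a compound on 2 members differed between 2 h and 6 h by an interaction test. For BMF the 6 h effect minus the 2 h effect was -1.80 on the log2 scale with dCBP (edgeR adjusted p = 0.029) and -2.61 with IHK-44 (edgeR adjusted p = 0.00423). For BID it was -0.59 with IHK-44 (edgeR adjusted p = 0.02255), from 30.4 and 29.1 CPM at 2 h to 22.9 and 22.3 CPM at 6 h. On log2(TPM + 1) none of the 3 passed in limma. Each condition has 1 library, so no group could be searched for a library that stands apart.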

How the results depend on the processing

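The counts of called members in this section stand without the share of all genes called in the same fit. They therefore do not set the members apart from other genes. With DMSO and NT joined as the control, 1 member was called with A485, 5 with dCBP and 5 with IHK-44. RLE scaling and DESeq2 each called 4 for IHK-44 against DMSO, and DESeq2 called 1 for JQAD against A485. With no filter, 1 was called for A485 at 2 h, 2 for IHK-44 at 6 h and 1 for the A485 doses. In limma on log2(CPM + 1), and equally on log2(CPM + 0.1), the counts were 2 for dCBP and 1 for IHK-44 against DMSO, 1 for JQAD against A485, 5 for dCBP and 2 for IHK-44 at 6 h, and 2 and 1 for their interactions. In limma on log2(TPM + 1) they were 4 and 6 for dCBP and IHK-44 against DMSO, 4 and 6 at 2 h, 0 and 0 for the interactions and 1 and 1 for 6 h against 2 h. Between compounds the TPM counts were 8 for dCBP and 8 for IHK-44 against A485, and 1, 5 and 8 for JQAD against A485, dCBP and IHK-44. There the direction reversed for PMAIP1 (-0.40), BID (-0.52), BAX (-0.31) and BAK1 (-0.44) in dCBP against A485, and for BID (-0.59), BAX (-0.525) and BAK1 (-0.49) in IHK-44 against A485. The cause was not tested. Over all genes, the share of calls that were higher at 6 h was 50.9% for dCBP and 49.1% for IHK-44, and 13% and 8.77% on TPM.

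Leaving out each library in turn gave 0 to 3 called members for dCBP and 0 to 2 for IHK-44 against DMSO, 0 to 1 for JQAD against A485, 0 to 1 for dCBP and 0 for IHK-44 at 2 h, and 1 to 2 for IHK-44 at 6 h. The interactions gave 0 to 1 for A485, 0 to 2 for dCBP and 1 for IHK-44. A485 had 0 to 1 between times and 0 to 1 between doses. The survival share of the family's TPM at 2 h and 6 h was 37.4% and 39.7% in DMSO and NT. With the wider family it was 27.8% and 29.1%, and it was 30.2% and 31.4% with A485, 29.3% and 26.4% with dCBP, 26.6% and 28.5% with IHK-44 and 28.5% and 30.05% with JQAD. Without BMF it was 42.9% and 43.4% in DMSO and NT, 42.9% and 43% with A485, 40.1% and 34.5% with dCBP, 37.7% and 38.7% with IHK-44, and 41.9% and 43.7% with JQAD. Of 3719 values of single members under the alternatives, 3544 kept their side of the threshold, 88 lost a call, 80 gained one and 7 reversed. Among the 3544 were 361 values, not called, whose sign differed. No paired analysis was possible because the labels give no replicate numbers and each condition has 1 library. Depth limits BBC3, at 19 to 55 counts a library.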
